A study of Mus musculus with 12 samples.

Results

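The BCL2 family genes measured here were 10 genes chosen by symbol, *Bcl2*, *Bcl2l1*, *Mcl1*, *Bcl2a1a*, *Bcl2a1b*, *Bcl2a1d*, *Bcl2l11*, *Bbc3*, *Pmaip1* and *Bax*, and all 10 were found among the 12850 genes with values. They were measured by RNA-seq in thioglycollate-elicited peritoneal exudate cells (PECs), a macrophage-rich population, from C57BL/6 mice that were either wild-type (WT) or carried a knock-in of the S513A change in *Zc3h12a*, which encodes the RNase Regnase-1. Mice received 2 ml of 4% thioglycollate medium in the peritoneum, and PECs taken 3.5 days later were cultured and left without LPS (0 hr) or given 100 ng/ml LPS for 4 or 8 hr. Each of the 6 groups held 2 libraries, and the labels do not say whether these came from separate mice, so the p values measure the spread between libraries only. In the comparison of the genotypes the question was whether transcript levels change when Regnase-1 lacks a serine that it needs to bind 14-3-3 proteins.

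BCL2 family proteins set whether the outer membrane of mitochondria stays intact. The pro-survival members (the products of *Bcl2*, *Bcl2l1*, *Mcl1* and the *Bcl2a1* genes) hold the effectors BAX and BAK in check, the BH3-only members (BIM from *Bcl2l11*, PUMA from *Bbc3* and NOXA from *Pmaip1*) bind and block the pro-survival proteins, and freed effectors form pores that release cytochrome c. In macrophages, engagement of TLR4 by LPS activates NF-kB, which is known to drive transcription of A1, the protein encoded by the *Bcl2a1* genes, while much of the regulation of MCL1 and BIM is on the protein, which these data do not show.

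A library held 9525979 to 12439960 reads on the 12850 genes with values. The lowest count of any of the 10 BCL2 family genes in any library was 48 reads, for *Pmaip1*. Values are log2 CPM (log2 of reads scaled to library size), differences are on the same scale, and adjusted p means limma's p after Benjamini-Hochberg adjustment over 11885 tested genes, with 0.05 as the threshold. All 10 genes passed the filter on low values. All 7 macrophage markers had values and together made 16165 to 26353 CPM per library, against 20.3 to 108 CPM for the 2 neutrophil markers with values (*S100a8* and *Camp*), 3.44 to 8.87 CPM for the 4 B cell markers, 0.523 to 2.16 CPM for the T cell marker *Lck*, 3.62 to 18.5 CPM for the 2 eosinophil markers with values, 1.76 to 3.84 CPM for the 4 mast cell markers, 0.650 to 3.62 CPM for the 4 mesothelial markers and 4.92 to 12.0 CPM for the 4 dendritic cell markers. Values were present for 2 of 9 neutrophil markers, 1 of 5 T cell markers and 2 of 5 eosinophil markers listed. The neutrophil markers *S100a9*, *Ly6g*, *Mpo*, *Elane*, *Ltf*, *Ngp* and *Cxcr2* were not among the genes with values. Nor were the T cell markers *Cd3d*, *Cd3e*, *Cd3g* and *Cd8a*. In bulk RNA, fewer cells of a type and less RNA per cell cannot be told apart. *Zc3h12a* itself lay between 4.99 and 5.39 log2 CPM before LPS, 7.87 and 8.11 after 4 hr and 6.80 and 7.11 after 8 hr over both genotypes, and a level cannot show a point change.

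Libraries of a group did not always lie close together. A single factor held 67.6% of the variance within groups over the 8353 genes with a mean of at least 3 log2 CPM. Its largest scores were in the libraries of WT at 4 hr (0.47 and -0.47), S513A at 4 hr (-0.32 and 0.32) and S513A at 8 hr (-0.40 and 0.40), replicate 1 given before replicate 2. Across 8245 genes its weights had a Pearson r of -0.68 with the log of transcript length and of -0.13 with GC content, so libraries with a high score held more reads of short transcripts. Among the 10 genes, deviations from the group mean followed this score over the 12 libraries with r of 0.97 for *Bcl2a1a*, 0.98 for *Bcl2a1b*, 0.95 for *Bcl2a1d* and 0.96 for *Bax*, whose transcripts of 819, 817, 863 and 1100 bases were the shortest of the 10. The r was -0.88 for *Bcl2l11*, with a transcript of 5036 bases, and 0.25 for *Mcl1* and 0.06 for *Bcl2l1*. In each pair of libraries that stood apart, the *Bcl2a1* genes and *Bax* were thus high in the same library. The 2 libraries of a group have equal and opposite deviations and scores, so each r rests on 1 independent value per group. The genes named here were also among those from which the factor was derived.

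**Figure D1:**
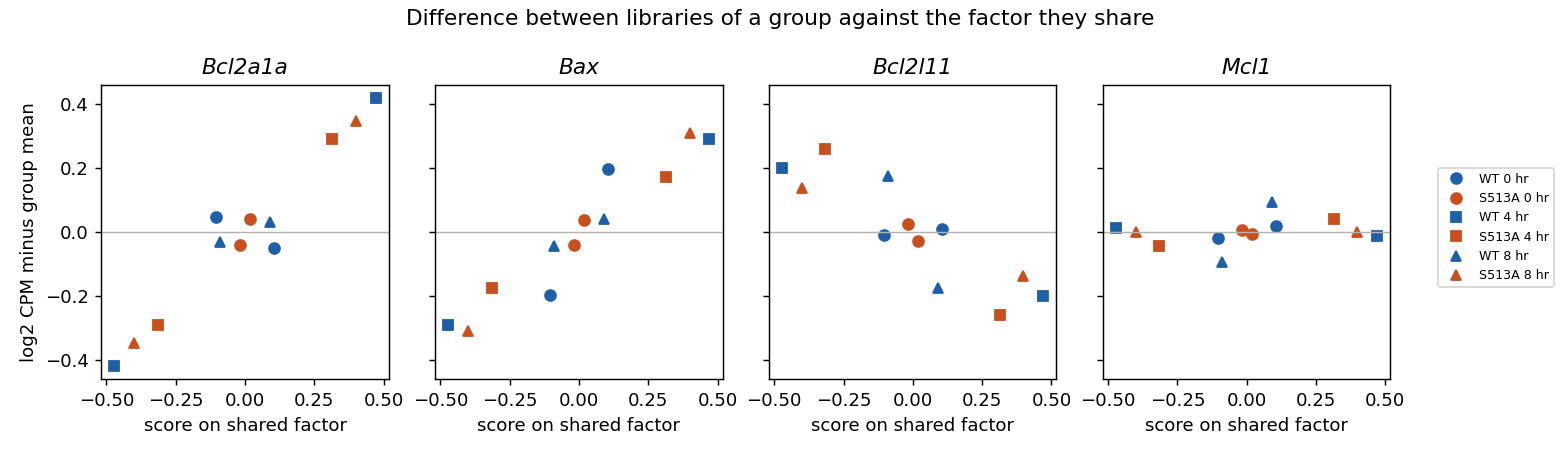
Deviation of each library from the mean of its group of 2 (log2 CPM, vertical axis) against its score on the factor shared by libraries of a group (no unit, horizontal axis), for *Bcl2a1a*, *Bax*, *Bcl2l11* and *Mcl1*, with genotype by colour and time by symbol. *Bcl2a1a* and *Bax* rise along the score (r of 0.97 and 0.96), *Bcl2l11* falls (r of -0.88) and *Mcl1* stays near 0.

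Averaged over the genotypes LPS raised the 3 *Bcl2a1* genes most of the 10, raised *Mcl1* by less, and lowered *Bcl2l1* and *Bbc3*. In S513A alone at 8 hr *Bcl2a1b* did not pass, with a difference of 0.57 beside 0.60 for *Mcl1*. *Bcl2* was lower at 4 hr only among the times compared with 0 hr, and *Bcl2l11* was lower at 8 hr. At 4 hr against 0 hr, averaged over the genotypes, 4 of the 10 genes rose and 3 fell, where 29.1% of all tested genes rose and 26.7% fell. At 8 hr against 0 hr 4 rose and 3 fell, where 24.5% of all tested genes rose and 21.6% fell. Between 4 and 8 hr 2 rose and 4 fell, where 12.8% of all tested genes rose and 12.8% fell. The median difference of the 10 genes was 0.24 at 8 hr against 0 hr and -0.03 between 4 and 8 hr, and over all tested genes these medians were close to 0, at -0.00070 and -0.02.

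**Figure D2:**
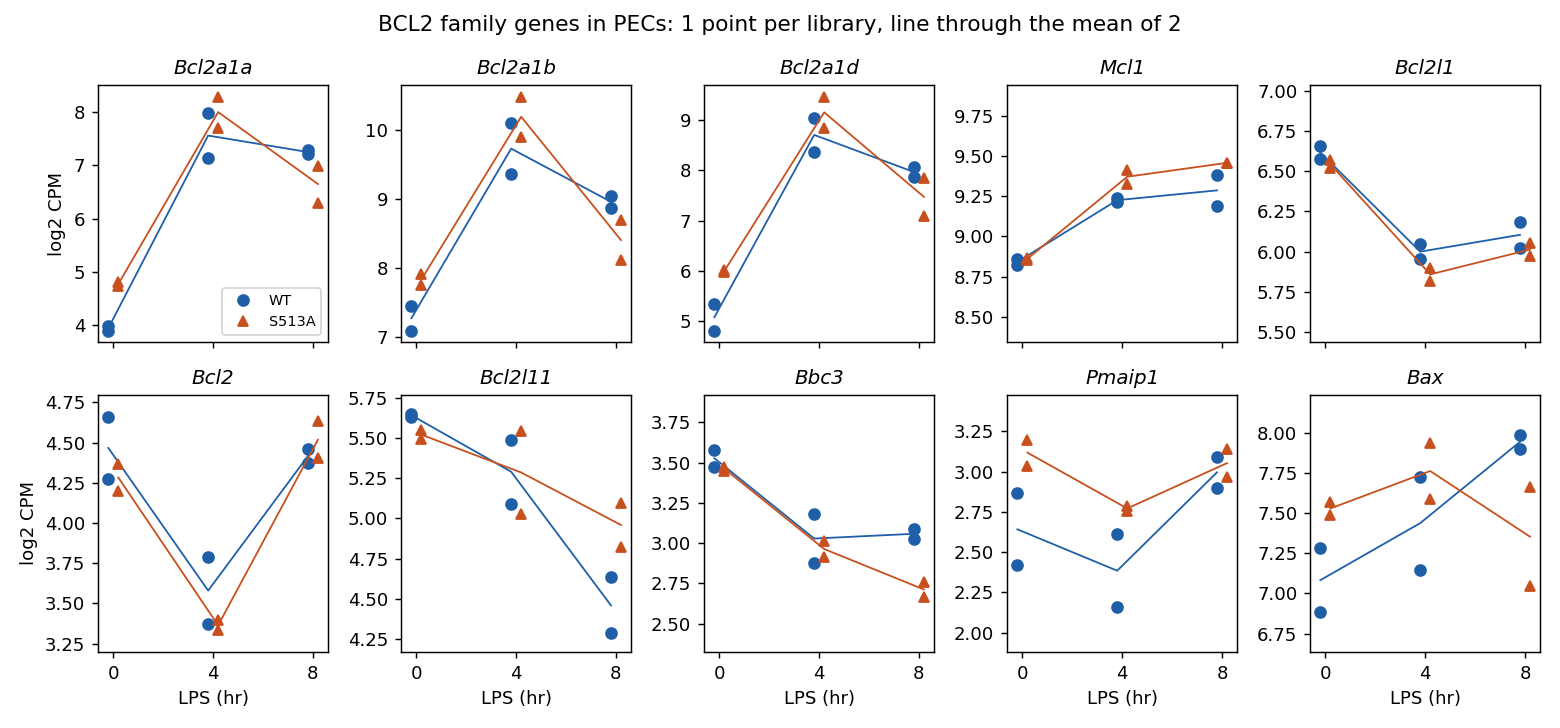
Log2 CPM (vertical axis, a scale of its own in each panel) of the 10 genes against hours of LPS, with 1 point per library (circles WT, triangles S513A) and lines through the means of 2 libraries. The means of the 3 *Bcl2a1* genes are highest at 4 hr in each genotype, *Bcl2* dips at 4 hr and returns, and *Bcl2l1* stays below its 0 hr values. For *Bcl2a1a* in WT, replicate 2 at 4 hr (7.14) lies below both libraries at 8 hr (7.21 and 7.28).

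The *Bcl2a1* genes encode A1, a pro-survival protein of leukocytes, and lie in 1 cluster on chromosome 9 (GRCm38), *Bcl2a1d* at chr9:88723285-88731914 on the minus strand, *Bcl2a1a* at chr9:88956900-88962419 and *Bcl2a1b* at chr9:89199209-89207827, both on the plus strand. Their coding sequences, of 516 bases each in the GENCODE annotation, were 97.9% to 98.8% identical, and 57.6% to 79.5% of the 50-base windows of each transcript were also found in another copy, so the split of reads between the 3 genes is uncertain and their sum is given beside them. The sequences upstream of their starts were also alike. In the RefSeq promoter windows (GRCm38.p6, from 250 bases before to 50 bases after each annotated start), all 3 *Bcl2a1* genes held the AP-1 letters TGANTCA, found in 7.81% of 32851 windows searched on both strands, and the PU.1 letters GAGGAAG, found in 13.63%. The 70 bases around them are printed because these are the genes with the largest response, with the AP-1 letters as the first run of capitals and the PU.1 letters as the next. N stands for any base, and in all 3 genes the match is TGAATCA, with A in that place. These letters say nothing about binding. In *Bcl2a1a* and *Bcl2a1b* the PU.1 letters occur 2 times with 1 base shared. The stretches are chr9:88956778-88956847 (plus strand), chr9:89199087-89199156 (plus strand) and chr9:88731917-88731986 (minus strand).
Bcl2a1a: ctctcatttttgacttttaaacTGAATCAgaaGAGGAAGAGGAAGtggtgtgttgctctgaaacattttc
Bcl2a1b: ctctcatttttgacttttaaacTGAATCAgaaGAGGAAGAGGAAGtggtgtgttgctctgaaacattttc
Bcl2a1d: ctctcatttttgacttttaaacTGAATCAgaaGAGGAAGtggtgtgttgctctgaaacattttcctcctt
The printed letters of *Bcl2a1a* and *Bcl2a1b* were the same. Neither the NF-kB letters searched (GGGNNTTTC, 4.36% of windows) nor the CRE letters (TGACGTCA, 1.79%) occurred in the windows of these 3 genes, which says nothing about binding there or elsewhere. The NF-kB letters occurred in windows of *Bcl2l1*, *Mcl1* and *Bbc3*. No window of the 9 genes searched held the CRE letters, and the E-box letters CACGTG (7.15% of windows) occurred in *Bbc3* and *Bax*.

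*Bcl2a1a* had log2 CPM of 3.99 and 3.90 at 0 hr, 7.97 and 7.14 after 4 hr and then 7.21 and 7.28 after 8 hr in WT, replicate 1 first here and in what follows. In S513A its values were 4.81 and 4.73 at 0 hr, 7.71 and 8.29 after 4 hr and then 6.30 and 6.99 after 8 hr. All 8 LPS libraries were above all 4 libraries at 0 hr, and the S513A libraries were above the WT libraries at 0 hr and below them at 8 hr. Averaged over the genotypes *Bcl2a1a* rose 10.7-fold at 4 hr (log2 difference 3.42, SE 0.20, adjusted p = 1.26e-07) and was 6.01-fold above 0 hr at 8 hr (2.59, SE 0.20, adjusted p = 1.47e-06).

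*Bcl2a1b* started higher, with 7.09 and 7.45 in WT and 7.91 and 7.76 in S513A at 0 hr. At 4 hr it reached 10.10 and 9.36 in WT and 9.90 and 10.49 in S513A, and at 8 hr it was at 8.87 and 9.05 in WT and 8.11 and 8.70 in S513A. The LPS libraries again lay above all libraries at 0 hr, though the lowest at 8 hr (8.11) was close to the highest at 0 hr (7.91). Its rise was smaller than that of the other copies, 5.32-fold at 4 hr (2.41, SE 0.19, adjusted p = 1.55e-06) and 2.19-fold at 8 hr (1.13, SE 0.19, adjusted p = 0.000689), and the difference between copies was not tested.

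*Bcl2a1d* went from 4.81 and 5.35 in WT and 5.98 and 6.01 in S513A at 0 hr to 9.05 and 8.36 in WT and 8.84 and 9.47 in S513A at 4 hr. At 8 hr its values were 7.86 and 8.07 in WT and 7.09 and 7.86 in S513A, above every library at 0 hr. The rise was 10.5-fold at 4 hr (3.40, SE 0.22, adjusted p = 2.31e-07) and 4.54-fold at 8 hr (2.18, SE 0.22, adjusted p = 1.07e-05). From 4 to 8 hr each copy fell when averaged over the genotypes. The fall was 0.83 for *Bcl2a1a* (adjusted p = 0.0119), 1.28 for *Bcl2a1b* (adjusted p = 0.000889) and 1.21 for *Bcl2a1d* (adjusted p = 0.00223).

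Summed over the 3 copies, A1 transcripts made 2584 to 3772 reads per library at 0 hr, 12251 to 21394 at 4 hr and 5692 to 9989 at 8 hr, without overlap between the times. The sum rose 6.69-fold at 4 hr (2.74, SE 0.20, adjusted p = 6.97e-07), was 2.92-fold above 0 hr at 8 hr (1.55, SE 0.20, adjusted p = 8.6e-05) and fell between 4 and 8 hr by 1.19 (SE 0.20, adjusted p = 0.00157). The fourth copy, *Bcl2a1c*, had 0 to 2 reads per library at 0 hr, 4 to 12 at 4 hr and 2 to 4 at 8 hr, so its reads were too few for a fold to be given.

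*Mcl1*, which encodes a short-lived pro-survival protein, lies at chr3:95658788-95663176. Its values were 8.82 and 8.86 in WT and 8.86 and 8.87 in S513A at 0 hr, then 9.21 and 9.24 in WT and 9.33 and 9.41 in S513A at 4 hr. At 8 hr it was at 9.19 and 9.38 in WT and 9.46 in both S513A libraries. All 8 LPS libraries were above all libraries at 0 hr, by 1.36-fold on average at 4 hr (0.45, SE 0.07, adjusted p = 0.000331) and 1.43-fold at 8 hr (0.52, SE 0.07, adjusted p = 0.000144). After quantile normalization the 4 hr difference of *Mcl1* was 0.02 (adjusted p = 0.858), so that call depended on the scaling, while the 8 hr difference was 0.21 (adjusted p = 0.0349).

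*Bcl2l1*, which encodes the pro-survival BCL-XL (chr2:152780668-152831728), moved the other way. It had 6.58 and 6.65 in WT and 6.57 and 6.52 in S513A at 0 hr, and 6.05 and 5.95 in WT and 5.90 and 5.82 in S513A at 4 hr. At 8 hr the values were 6.02 and 6.18 in WT and 6.05 and 5.97 in S513A, all below every library at 0 hr. *Bcl2l1* fell 1.57-fold at 4 hr (-0.65, SE 0.07, adjusted p = 1.88e-05) and was 1.43-fold below 0 hr at 8 hr (-0.52, SE 0.07, adjusted p = 0.000138), and between 4 and 8 hr its difference of 0.13 did not pass (adjusted p = 0.222).

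*Bcl2* (chr1:106538178-106714274), the founding pro-survival gene, had 4.27 and 4.66 in WT and 4.20 and 4.36 in S513A at 0 hr. At 4 hr it was at 3.37 and 3.79 in WT and 3.33 and 3.39 in S513A, below every other library, and at 8 hr it was back at 4.46 and 4.37 in WT and 4.63 and 4.40 in S513A. It fell 1.87-fold at 4 hr (-0.90, SE 0.12, adjusted p = 0.000107) and rose 1.99-fold from 4 to 8 hr (0.99, SE 0.12, adjusted p = 0.000269). The difference at 8 hr against 0 hr was 0.09 (95% interval -0.18 to 0.37, adjusted p = 0.581). Reads were mapped without regard to strand, and an annotated antisense gene, *D630008O14Rik*, overlaps exons of *Bcl2*. Within that overlap, reads of the pair cannot be told apart.

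Among the BH3-only genes, *Bcl2l11* and *Bbc3* share FOXO letters (TGTTTAC on either strand, 3.65% of windows) in their RefSeq windows, printed here because both genes fell. The letters are in capitals, read on the minus strand in *Bcl2l11* (chr2:128125789-128125840, plus strand shown) and on the plus strand in *Bbc3* (chr7:16310072-16310123), where the stretch lies in an intron of the annotated gene.
Bcl2l11: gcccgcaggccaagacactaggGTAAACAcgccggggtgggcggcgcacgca
Bbc3: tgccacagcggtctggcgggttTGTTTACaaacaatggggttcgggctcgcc
*Foxo3*, the gene of a FOXO factor known to drive both genes, was itself lower by 1.30 at 4 hr (adjusted p = 2.99e-06) and by 0.90 at 8 hr (adjusted p = 7.27e-05). The letters say nothing about binding, and a link between the level of *Foxo3* and either gene was not tested.

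*Bcl2l11* (BIM, chr2:128126038-128162547) had 5.63 and 5.65 in WT and 5.49 and 5.55 in S513A at 0 hr. At 4 hr it was at 5.09 and 5.49 in WT and 5.55 and 5.03 in S513A, overlapping the 0 hr values, and at 8 hr it was at 4.63 and 4.29 in WT and 5.10 and 4.82 in S513A, below all of them. The 4 hr difference of -0.29 did not pass (SE 0.14, adjusted p = 0.0951), but did in 5 of 27 alternative fits. Without replicate 1 of S513A at 4 hr it was -0.42 and without replicate 2 of WT at 4 hr -0.39, in a range from -0.16 to -0.42 without a library. Each such fit leaves 1 library in a group, whose spread is then lost. At 8 hr *Bcl2l11* was 1.83-fold below 0 hr (-0.87, SE 0.14, adjusted p = 0.000398), and it fell from 4 to 8 hr by 0.58 (adjusted p = 0.0114). Without replicate 2 of WT at 8 hr that last difference was -0.49 (adjusted p = 0.0536).

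*Bbc3* (PUMA, chr7:16308393-16318205) had 3.58 and 3.47 in WT and 3.45 and 3.47 in S513A at 0 hr, then 2.88 and 3.18 in WT and 2.91 and 3.01 in S513A at 4 hr. At 8 hr it was at 3.09 and 3.03 in WT and 2.66 and 2.76 in S513A. All LPS libraries were below all libraries at 0 hr, by 1.41-fold at 4 hr (-0.50, SE 0.10, adjusted p = 0.00202) and 1.53-fold at 8 hr (-0.61, SE 0.10, adjusted p = 0.000689), on 62 to 171 reads per library.

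*Pmaip1* (NOXA, chr18:66458533-66465565) was the gene with the fewest reads. It had 2.86 and 2.42 in WT and 3.04 and 3.20 in S513A at 0 hr, 2.61 and 2.16 in WT and 2.75 and 2.79 in S513A at 4 hr, and 2.90 and 3.09 in WT and 2.96 and 3.14 in S513A at 8 hr. All 4 libraries at 4 hr were below all 4 at 8 hr, and both ranges overlapped that at 0 hr. The 4 hr difference of -0.30 did not pass (adjusted p = 0.101), but did with the length and GC trend removed (-0.55, adjusted p = 0.00205). It was -0.41 without replicate 2 of WT at 0 hr and -0.42 without replicate 1 of WT at 4 hr. Fits without a library, which leave 1 library in a group, ranged from -0.42 to -0.19. The rise of 0.45 from 4 to 8 hr passed narrowly (SE 0.15, adjusted p = 0.0451) and kept the threshold in 13 of 27 alternative fits, with adjusted p up to 0.143.

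*Bax* (chr7:45461697-45466898), the effector, had 6.89 and 7.28 in WT and 7.57 and 7.49 in S513A at 0 hr. At 4 hr it was at 7.73 and 7.15 in WT and 7.59 and 7.93 in S513A, and at 8 hr at 7.90 and 7.98 in WT and 7.04 and 7.66 in S513A. Averaged over the genotypes neither the 4 hr difference (0.29, SE 0.17, adjusted p = 0.157) nor the 8 hr difference (0.34, SE 0.17, adjusted p = 0.119) passed. Without replicate 2 of WT at 4 hr the 4 hr difference was 0.44, and the fits without a library ranged from 0.15 to 0.44. Without replicate 1 of S513A at 8 hr the 8 hr difference was 0.50, in a range from 0.19 to 0.50. Each such fit leaves 1 library in a group, whose spread is then lost. With the length and GC trend removed both passed, at 0.33 (adjusted p = 0.0184) and 0.43 (adjusted p = 0.00505). In WT alone *Bax* rose 1.81-fold at 8 hr (0.86, SE 0.23, adjusted p = 0.0161), whereas in S513A the difference was -0.18 (SE 0.23, adjusted p = 0.583). Without replicate 1 of WT at 0 hr the WT value was 0.66 (adjusted p = 0.132), without replicate 1 at 8 hr 0.90 (adjusted p = 0.0613), without replicate 2 at 8 hr 0.82 (adjusted p = 0.0938), and after quantile normalization 0.55 (adjusted p = 0.0657). A predicted gene, *Gm45808*, overlaps *Bax* exons on the same strand, and *Gm29094* does so for *Bcl2a1b*.

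**Figure D3:**
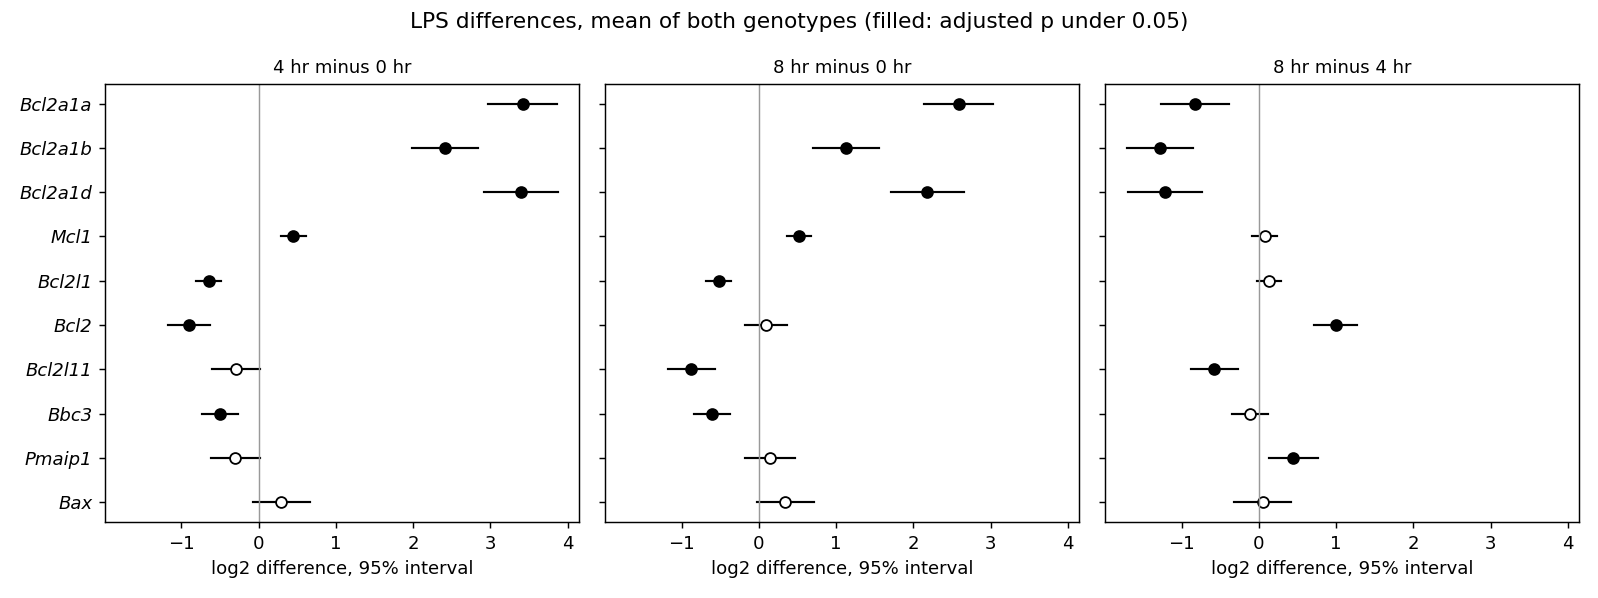
Log2 differences (horizontal axis) of the 10 genes for 4 hr minus 0 hr, 8 hr minus 0 hr and 8 hr minus 4 hr of LPS, averaged over WT and S513A, with 95% intervals from limma. Filled points have an adjusted p under 0.05, and the 3 *Bcl2a1* genes lie farthest from 0 at 4 hr (2.41 to 3.42).

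Each genotype was also compared with its own 0 hr libraries. In WT 7 of the 10 genes changed at 4 hr, where 41.3% of all tested genes did, and in S513A 7 changed, where 43.2% did, in each case 4 up and 3 down. At 8 hr 8 changed in WT, against 34.3% of all tested genes, and 6 in S513A, against 39.9%. The genes called in WT at 8 hr but not in S513A were *Bax* and *Bcl2a1b*, whose S513A difference was 0.57 (SE 0.27, adjusted p = 0.122) beside 1.69 in WT (SE 0.27, adjusted p = 0.000777). With the length and GC trend removed from each library, which can also remove LPS differences that go with transcript length, *Bcl2a1b* passed in both. Its differences were then 1.03 in S513A (adjusted p = 4.92e-07) and 1.00 (adjusted p = 7.01e-07) in WT. *Bcl2l11* passed in both, with -1.18 in WT (SE 0.20, adjusted p = 0.000875) and -0.56 in S513A (SE 0.20, adjusted p = 0.0421), the latter with adjusted p from 0.0245 to 0.183 in fits without a library. For the summed A1 transcripts the 8 hr difference was 2.14 in WT (SE 0.28, adjusted p = 0.000178) and 0.95 in S513A (SE 0.28, adjusted p = 0.0215). Leaving out replicate 2 of S513A at 8 hr gave 0.62 in S513A (adjusted p = 0.134), and leaving out replicate 1 or 2 of S513A at 0 hr gave 1.00 (adjusted p = 0.0762) or 0.90 (adjusted p = 0.102).

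Per kilobase of exon, a rough scale for setting levels of different genes side by side, *Bcl2a1b* was the highest of the 10 at each time. Its median over 4 libraries was 238 CPM per kb at 0 hr, 1256 at 4 hr and 540 at 8 hr. At 0 hr *Mcl1* (136 CPM per kb) and *Bax* (106) followed, and the order *Bcl2a1b*, *Mcl1*, *Bax*, *Bcl2a1d* had no overlap between neighbours. *Bcl2a1d* (58.8) overlapped *Bcl2a1a* (25.1), which overlapped *Bcl2l1* (20.8). At 4 hr *Bcl2a1d* (572) and *Bcl2a1a* (280) came between *Bcl2a1b* and *Mcl1* (182), with overlap from each to the next, and at 8 hr *Bcl2a1d* (269), *Mcl1* (200), *Bcl2a1a* (168) and *Bax* (140) overlapped from each to the next. *Bcl2l11*, *Bbc3*, *Pmaip1* and *Bcl2* made up the low end at every time, with medians from 1.14 to 6.00 CPM per kb. At 4 hr *Bcl2* (1.14) lay below *Pmaip1* (2.35) without overlap. The levels of the *Bcl2a1* copies carry the uncertainty of their shared reads. All annotated exons of a gene were counted in its length, which gave *Bcl2l1* 4586 bases beside a longest transcript of 2568. For *Bax* these were 1576 and 1100 bases. The order of genes can depend on this choice and on the reads of short transcripts, which differed between libraries.

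Between the genotypes none of the 10 genes passed at any time. The counts over all tested genes were also small, with 0.0337% called at 0 hr, 0.0168% at 4 hr, 0.0337% at 8 hr and 0.0673% for the mean of the 3 times. At an unadjusted p under 0.05 there were 3 of the 10 genes at 0 hr, 0 at 4 hr, 3 at 8 hr and 1 for the mean of the 3 times, and 949, 833, 1487 and 798 of the 11885 tested genes. At 0 hr the differences of S513A from WT were largest for *Bcl2a1d* (0.92, 95% interval 0.25 to 1.59) and *Bcl2a1a* (0.83, 0.20 to 1.46), with adjusted p = 0.586 for each. At 8 hr *Bax* (-0.59, -1.11 to -0.07), *Bcl2l11* (0.50, 0.07 to 0.93) and *Bbc3* (-0.35, -0.67 to -0.02) had intervals clear of 0, with adjusted p = 0.395 for each. *Mcl1* and *Bcl2l1* had narrower intervals, which at 8 hr ran from -0.05 to 0.40 and from -0.32 to 0.13. The summed A1 transcripts differed by 0.65 at 0 hr (0.02 to 1.27), 0.46 at 4 hr (-0.17 to 1.08) and -0.55 at 8 hr (-1.17 to 0.08).

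**Figure D4:**
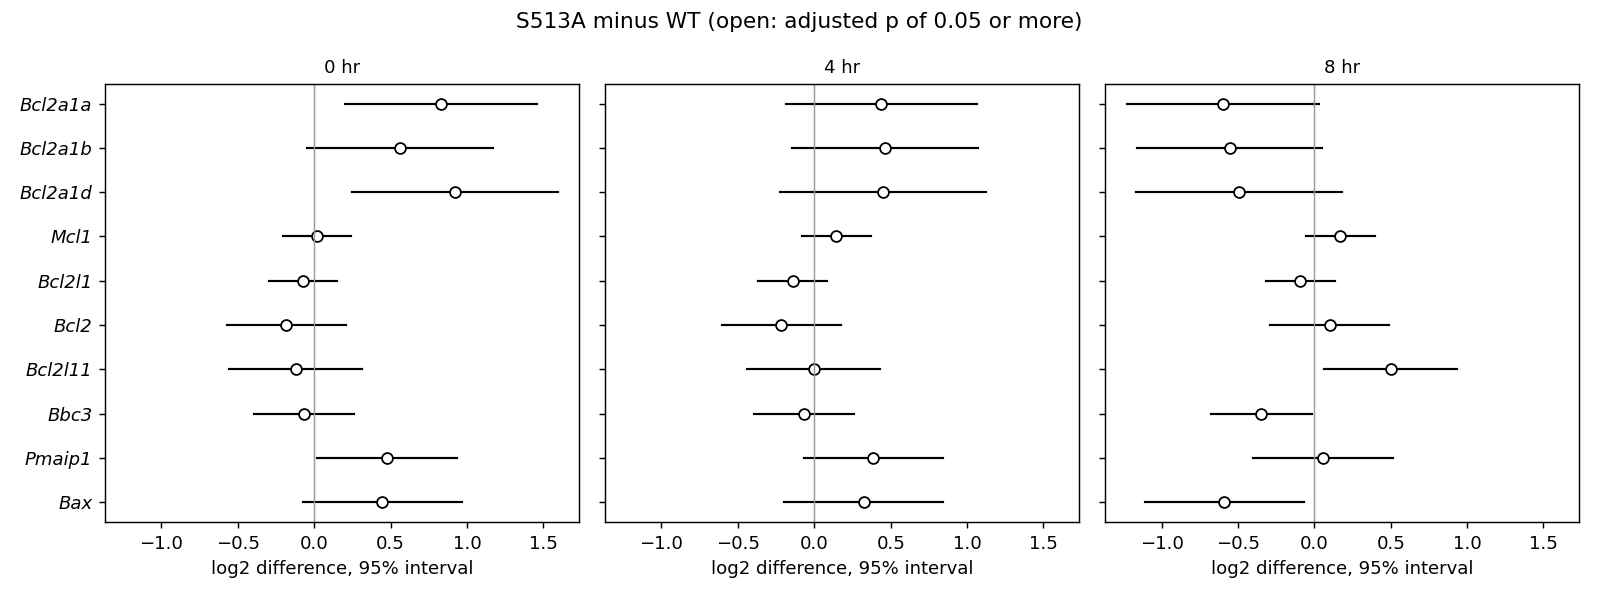
S513A minus WT on the log2 scale (horizontal axis) for the 10 genes at 0, 4 and 8 hr of LPS, with 95% intervals from limma. All points are open, that is, with an adjusted p of 0.05 or more, and the *Bcl2a1* genes lie right of 0 at 0 hr (0.56 to 0.92) and left of it at 8 hr (-0.60 to -0.50).

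The test of whether the LPS response itself differed between genotypes called none of the 10 genes, and 0% of all tested genes, at 4 hr and likewise 0% at 8 hr. At an unadjusted p under 0.05 these were 0 of the 10 and 144 of all tested genes at 4 hr, and 5 of the 10 and 2405 of all tested genes at 8 hr. The 5 at 8 hr were *Bcl2a1a* (interaction -1.43, 95% interval -2.31 to -0.54, adjusted p = 0.193), *Bcl2a1d* (-1.42, -2.37 to -0.46, adjusted p = 0.193), *Bcl2a1b* (-1.12, -1.98 to -0.26, adjusted p = 0.197), *Bax* (-1.04, -1.77 to -0.30, adjusted p = 0.193) and *Bcl2l11* (0.62, 0.01 to 1.23, adjusted p = 0.244). These are also the 5 genes that moved most with the factor shared by libraries of a group. With the trend on transcript length and GC content removed from each library, an alternative added after the data were seen, the interaction of the summed A1 transcripts went from -1.19 (95% interval -2.08 to -0.31) to -0.05 (-0.28 to 0.18). Taken singly, the copies went to -0.29 (-0.65 to 0.07) for *Bcl2a1a*, 0.03 (-0.21 to 0.27) for *Bcl2a1b* and -0.31 (-0.60 to -0.02) for *Bcl2a1d*. The interaction of *Bax* went to -0.65 (-1.12 to -0.18) and that of *Bcl2l11* to 0.46 (0.02 to 0.91). The trend was fitted to each library's deviations from the mean of all 12 libraries. It can thus also take away LPS or genotype differences that go with transcript length. The 0 hr difference of the summed A1 transcripts between genotypes went from 0.65 to 0.10 (-0.07 to 0.26) in the same fit, while *Bcl2a1d* kept a difference of 0.39 (0.19 to 0.60, adjusted p = 0.439), *Bcl2a1a* 0.28 (0.03 to 0.54, adjusted p = 0.596) and *Bcl2a1b* 0.01 (-0.16 to 0.18). Without replicate 2 of S513A at 8 hr the interaction was -1.77 for *Bcl2a1a*, -1.80 for *Bcl2a1d* and -1.34 for *Bax*. This fit leaves 1 library in that group, whose spread is then lost. Over the fits without a library, *Bcl2a1a* ranged from -1.77 to -1.08, *Bcl2a1d* from -1.80 to -1.03 and *Bax* from -1.34 to -0.73. The summed A1 transcripts ranged from -1.52 to -0.86.

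Of the 9 neutrophil markers listed only *S100a8* and *Camp* had values, and *S100a8* followed the *Bcl2a1* genes in part. It had 4.34 and 5.13 log2 CPM in WT and 5.76 and 5.67 in S513A at 0 hr, 5.99 and 5.45 in WT and 5.67 and 6.73 in S513A at 4 hr, and 6.35 and 6.63 in WT and 4.99 and 6.39 in S513A at 8 hr. The summed neutrophil markers were thus at 20.3 to 35.4 CPM in WT and 51.1 to 54.2 CPM in S513A at 0 hr, and at 84.2 to 102 CPM in WT and 33.5 to 86.9 CPM in S513A at 8 hr. The other defining marker with values, *Camp*, had 0 to 4 reads per library at 0 hr and 15 to 36 after LPS. The sums thus came mostly from *S100a8*. In each pair of libraries that stood apart on the shared factor, *S100a8* was high in the same library as the *Bcl2a1* genes. The summed eosinophil markers moved with the time of LPS, from 15.3 to 18.5 CPM at 0 hr over both genotypes to 8.02 to 10.0 CPM after 4 hr and 3.62 to 4.58 CPM after 8 hr. The part of such cells in the LPS and genotype differences of the 10 genes was not tested.

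The other genes of the pathway were taken from lists held fixed for this work, and their counts stand beside the 29.1% of all tested genes that rose and 26.7% that fell at 4 hr, and the 24.5% and 21.6% at 8 hr. Of 16 other BCL2 family genes 10 were tested, and 4 rose and 4 fell at 4 hr, and 4 rose and 2 fell at 8 hr, with median differences of 0.04 and -0.0066. *Bcl2l2*, which encodes the pro-survival BCL-W, rose by 0.85 at 4 hr (adjusted p = 2.41e-06), and *Bid*, whose product links death receptors to mitochondria, was higher by 0.80 at 8 hr (adjusted p = 0.000147). *Bnip3l*, a gene of mitophagy, was lower by 1.23 at 4 hr (adjusted p = 1.12e-06) and by 1.17 at 8 hr (adjusted p = 2.15e-06). The BH3-only gene *Bmf* went from 111 to 210 reads per library at 0 hr to 0 to 16 at 4 hr and 18 to 34 at 8 hr, and passed in each comparison (adjusted p = 7.41e-05 at 4 hr and 0.0165 at 8 hr).

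Of 11 genes of the apoptosome, the caspases and the proteins released from mitochondria, 3 rose and 4 fell at 4 hr and 5 rose and 3 fell at 8 hr. Averaged over the genotypes *Cycs*, the gene of cytochrome c, was higher by 0.83 at 4 hr and by 0.78 at 8 hr (adjusted p = 0.00519 and 0.0098). Its 8 hr mean was 6.87 log2 CPM in WT, beside 5.45 at 0 hr. In S513A it was 6.28 (SD 0.66, n = 2), beside 6.15 at 0 hr. *Casp9*, the initiator caspase of the apoptosome, was lower by 0.95 at 4 hr (adjusted p = 3.56e-06) and rose by 0.54 from 4 to 8 hr (adjusted p = 0.00111). *Casp6* was lower by 0.86 at 4 hr (adjusted p = 0.000457) and by 0.95 at 8 hr (adjusted p = 0.0003). Averaged over the genotypes *Endog*, a mitochondrial nuclease, was lower by 0.70 at 8 hr (adjusted p = 0.0209). Its mean fell from 1.95 to 0.50 log2 CPM in S513A but not in WT (1.18 and 1.24), on 11 to 45 reads per library. *Htra2*, a mitochondrial protease, rose by 0.57 from 4 to 8 hr (adjusted p = 0.000603).

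Of 11 tested genes of p53 and its targets, a list that holds transcripts often raised along with *Bbc3*, *Pmaip1* and *Bax*, 4 rose and 5 fell at 4 hr and 4 rose and 4 fell at 8 hr. *Cdkn1a*, an inhibitor of the cell cycle, was higher by 1.92 and 1.21 (adjusted p = 7.7e-09 and 4.1e-07), and *Fas*, a death receptor, by 1.96 and 2.12 (adjusted p = 2.51e-07 and 1.74e-07). *Trp53inp1* was lower by 1.69 and 1.36 (adjusted p = 1.5e-07 and 1.06e-06), and *Sesn1* by 1.96 at 4 hr (adjusted p = 2.31e-07). *Phlda3*, a target of p53 that restrains AKT, was lower by 1.53 at 8 hr (adjusted p = 6.58e-07). It was also the only gene of these lists called between genotypes, at 3.03 ± 0.11 log2 CPM in WT and 1.81 ± 0.06 in S513A at 8 hr (SD, n = 2 each), a difference of -1.22 (adjusted p = 0.0256), and of -0.63 for the mean of the 3 times (adjusted p = 0.0465).

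Of 10 regulators of the transcription or turnover of these proteins, 2 rose and 5 fell at 4 hr and 1 rose and 2 fell at 8 hr. Beside *Foxo3*, *Trib3*, a gene of the stress response, was lower by 1.04 at 4 hr (adjusted p = 0.00297). *Usp9x*, which encodes a deubiquitinase of MCL1, was higher by 0.54 at 4 hr (adjusted p = 0.00444), as was *Mapk8*, the gene of the kinase JNK1, by 0.53 (adjusted p = 0.00338). At 8 hr *Fbxw7*, part of a ubiquitin ligase for MCL1, was lower by 0.37 (adjusted p = 0.0311), and the transcription factor gene *E2f1* was higher by 0.37 (adjusted p = 0.02). The median difference of this list was -0.32 at 4 hr, where that of all tested genes was 0.02.

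Over the 12 libraries, the gene outside the 10 whose log2 CPM followed each of them most closely, among 8344 genes with a mean of 3 log2 CPM or more, was *Stxbp3* for *Bcl2a1a* (Pearson r = 0.996), *Mt2* for *Bcl2a1b* (0.991) and *Ube2f* for *Bcl2a1d* (0.997). It was *Lrp11* for *Mcl1* (0.983), *Vegfa* for *Bcl2l1* (0.991) and *Ide* for *Bcl2* (0.973). For *Bcl2l11* it was *Snx13* (0.962), for *Bbc3* *Cd300lf* (0.964), for *Pmaip1* *Mipep* (0.896) and for *Bax* *Mrpl55* (0.992). Among the 10 genes, *Bcl2l1* ran against *Bcl2a1a* (r = -0.95) and *Mcl1* against *Bbc3* (-0.94), whereas *Bcl2a1a* and *Bcl2a1d* ran together (0.99). These values describe 12 libraries that share the LPS times and the factor described above.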

How the data were processed

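Poly(A) RNA of PECs was isolated with TRIzol, made into libraries with the NEBNext Ultra kit and sequenced on a NextSeq 500. Per the labels and the study's methods, reads were mapped to mm10 with HISAT2 (paired end, unstranded) and counted with featureCounts (version 1.6.3). The authors deposited log2 CPM values, each the log2 of reads plus 0.5 over an effective library size; whole reads were recovered for every gene (largest departure 0.00103 read). The program behind the log2 values and the gene annotation are not given in the sources used here. Differences were tested with limma 3.58.1 (R 4.3.3) on the deposited values, with a mean per group, 12 libraries, 6 residual degrees of freedom and a trended prior. Tests were two-sided and covered genes that reached 1 CPM in 2 or more libraries, with Benjamini-Hochberg adjustment. The code was tested on simulated data. Intervals are 95% intervals of limma and floors were set at 3 reads. Positions and transcript lengths come from GENCODE M21 (GRCm38), promoter windows from RefSeq (GRCm38.p6).

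The genes and lists were chosen with earlier results of these data known. From each list the text names, for each averaged LPS comparison, up to 2 genes of largest rise and 2 of largest fall that passed, and any that passed between genotypes; of these, some appear only in the counts, and a result that the rule would name is not reported here. For each of the 10 genes it names the gene with the highest Pearson r. Same-numbered libraries share only a number: their deviations correlated between -0.749 and 0.76 over pairs of groups. In all 27 alternative fits were made: 24 planned, among them 12 that leave out a library, and 3 added after the data were seen.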

Additional observations from a re-analysis of the deposited data

How the results depend on the processing

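The averaged LPS calls of the 3 *Bcl2a1* genes and their sum, of *Bcl2l1*, of *Bbc3* against 0 hr, of *Bcl2* at 4 hr and from 4 to 8 hr and of *Bcl2l11* at 8 hr against 0 hr passed in all 27 alternative fits. The number of genes called without a library ranged from 5 to 8 for LPS at 8 hr in WT (5 without replicate 2 of WT at 8 hr, where *Bax*, *Bbc3* and *Mcl1* no longer passed) and from 0 to 3 for the interaction at 8 hr (3 without replicate 2 of S513A at 8 hr), and was 0 for S513A against WT at each time. With only the groups compared in the model, 3 genes (the *Bcl2a1* genes) passed between genotypes at 0 hr. Without the 3 libraries highest on the shared factor 4 genes passed between genotypes at 0 hr, 1 after 4 hr and 5 after 8 hr, and 5 in the interaction at 8 hr; without the 3 lowest, 4 passed at 0 hr and 4 in the interaction. Leaving out libraries chosen by their spread lowers the spread by construction. A fit without 1 library leaves 1 in its group, which then adds nothing to the estimate of spread. After quantile normalization the *Mcl1* difference at 4 hr in WT went from 0.38 to -0.099. Among the averaged LPS differences, signs turned only in ones that did not pass: *Bcl2* at 8 hr against 0 hr without a library (-0.0039 to 0.19), *Bax* at 8 against 4 hr without a library (-0.11 to 0.20) and without the 3 lowest libraries (-0.028), *Bax* at 4 hr after quantile normalization (-0.062) and *Pmaip1* at 8 hr with the length and GC trend removed (-0.054). The causes were not tested. With the replicate number as a replicate block, 7 genes passed at 4 hr and 7 at 8 hr against 0 hr, 5 between 4 and 8 hr and 0 in each comparison of the genotypes. The depth limits *Pmaip1* and *Bbc3* most.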
